A study of Mus musculus with 12 samples.

Results

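The genes described here encode the extracellular control of bone morphogenetic protein (BMP) signalling and a part of its output. They are 10 of the 55385 genes counted: the antagonists and binding proteins Chrdl2, Chrd, Nog, Grem1 and Bmper, the ligands Bmp2, Bmp4 and Bmp6, and the target genes Id1 and Id3. The set was chosen by the counts of Chrdl2, which were lower in Keap1 knockout (KO) than in control cells of these same libraries, so the change of Chrdl2 between genotypes is given as a description without a test. The other members were taken for their place in the pathway.

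Satellite cells, which rebuild skeletal muscle after injury, were isolated from the hindlimb muscle of C57BL/6J mice and frozen in liquid nitrogen at once. There were 4 groups of 3 animals, with 1 library per animal: female Keap1 KO, female Keap1 Hetz, male Keap1 KO and male Keap1 Hetz. Hetz is the control genotype, which the labels also write as Keap1 "heterogeneous"; what those animals carry at Keap1 is stated no further. The Cre driver or allele behind the KO, the age of the animals and the source of the controls are not given in the sources used here. The stated aim was to learn how KEAP1, the adaptor that presents the transcription factor NRF2 for degradation, acts with NRF2 on the maintenance and activation of these cells in each sex.

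BMP ligands are secreted dimers that bring type I and type II serine/threonine kinase receptors together. The receptors phosphorylate SMAD1, SMAD5 and SMAD9, which enter the nucleus with SMAD4 and raise transcription of targets such as the Id genes. Chordin, the chordin-like proteins, noggin and gremlin bind the ligands outside the cell and keep them from the receptors, while BMPER and TWSG1 can hinder or help signalling depending on context. ID proteins lack a DNA-binding region and hold E proteins away from partners such as MYOD1. In muscle, BMP signalling is known to favour the proliferation of satellite cell progeny and to hold back their differentiation.

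Total counts per library ran from 13042039 to 19273245. All 11 satellite cell markers examined, Pax7 and Myf5 among them, had counts in every library, and Pax7 ran from 12.1 to 13.0 CPM (counts scaled to a common library size) in female KO, 10.7 to 15.5 in female Hetz, 10.1 to 22.4 in male KO and 17.4 to 30.0 CPM in male Hetz libraries. Keap1 stood at 11.9, 13.0 and 11.02 CPM in female KO against 9.56, 7.18 and 7.95 CPM in female Hetz libraries, and at 6.30, 7.74 and 7.70 CPM in male KO against 9.78, 5.33 and 8.08 CPM in male Hetz libraries. These counts sum all exons of the gene and do not check the labels of an exon deletion, and 10.9% of its exonic bases overlap Gm16754. Nqo1, a classical NRF2 target, averaged 92.1 ± 15.2 CPM in female KO against 4.42 ± 1.15 CPM in female Hetz and 33.6 ± 2.79 CPM in male KO against 3.45 ± 1.22 CPM in male Hetz libraries (mean ± SD, n = 3 each, as throughout). Each sex has a count table of its own, and a batch cannot be told apart from sex wherever females and males are set against each other.

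The sequences just before 3 start sites are shown because Bmper and Nbl1 are antagonist genes that fell in KO cells averaged over the sexes, and because Bmp6 has the only member window with the letters of an NRF2 element. They come from RefSeq on GRCm38.p6, each is the 250 bases before the start on the gene's strand, and capitals mark the motif matches described next.

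Bmper, chr9:23222826-23223075, plus strand: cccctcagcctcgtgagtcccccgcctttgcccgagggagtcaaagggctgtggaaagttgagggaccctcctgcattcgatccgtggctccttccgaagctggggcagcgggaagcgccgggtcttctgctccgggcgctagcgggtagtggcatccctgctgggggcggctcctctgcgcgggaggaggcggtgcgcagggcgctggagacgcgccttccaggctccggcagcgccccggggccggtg

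Nbl1, chr4:139092971-139093220, minus strand: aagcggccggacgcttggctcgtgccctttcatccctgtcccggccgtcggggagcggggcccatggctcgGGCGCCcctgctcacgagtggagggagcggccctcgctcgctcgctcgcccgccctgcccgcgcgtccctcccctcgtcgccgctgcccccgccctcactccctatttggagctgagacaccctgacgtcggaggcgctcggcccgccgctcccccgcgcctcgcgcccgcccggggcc

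Bmp6, chr13:38345466-38345715, plus strand: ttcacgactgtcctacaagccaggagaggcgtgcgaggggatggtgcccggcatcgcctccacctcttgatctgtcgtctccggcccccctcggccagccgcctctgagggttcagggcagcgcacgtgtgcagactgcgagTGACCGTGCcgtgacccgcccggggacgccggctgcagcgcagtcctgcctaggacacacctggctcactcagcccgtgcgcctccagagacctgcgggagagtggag

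RefSeq windows of 300 bases, 250 before and 50 after the start, were matched for 6 of the 10 members (Chrd, Grem1, Bmper, Bmp4, Bmp6 and Id3), and for Nbl1 and Runx2. Both strands were searched for TGACNNNGC, the core of the antioxidant response element that NRF2 binds, and for GGCGCC, a GC-rich SMAD element, and matches of the motifs were allowed to overlap. TGACNNNGC was held by 12.4% and GGCGCC by 11.9% of all 32851 windows of that length. Among the 8 windows examined, TGACNNNGC was found in that of Bmp6, its first base 108 bases before the start. GGCGCC was found 203 bases before the start of Chrd, 78 before that of Grem1 and 179 before that of Nbl1. The windows of Bmper, Bmp4, Id3 and Runx2 held no match to either motif, which says only that these letters are not there.

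Chrdl2, or chordin-like 2, encodes a secreted protein with the cysteine-rich domains that chordin uses to bind BMPs. Its gene (ENSMUSG00000030732) lies on the plus strand of GRCm38 chromosome 7, from 100006172 to 100034728, and none of its exonic bases overlap another gene model. It stood at 66.8, 99.8 and 67.3 CPM in female KO against 322, 208 and 343 CPM in female Hetz libraries. Males had 195, 182 and 115 CPM in KO against 410, 413 and 452 CPM in Hetz libraries. Every KO library lay below every Hetz library of its sex, and also below every Hetz library of the other sex. The log2 fold change of KO over Hetz was -1.90 in females, or 3.73-fold lower, and -1.37 in males, or 2.59-fold lower. Since these are bulk samples, fewer cells of a type with the transcript and less of it per cell cannot be told apart.

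**Figure D1:**
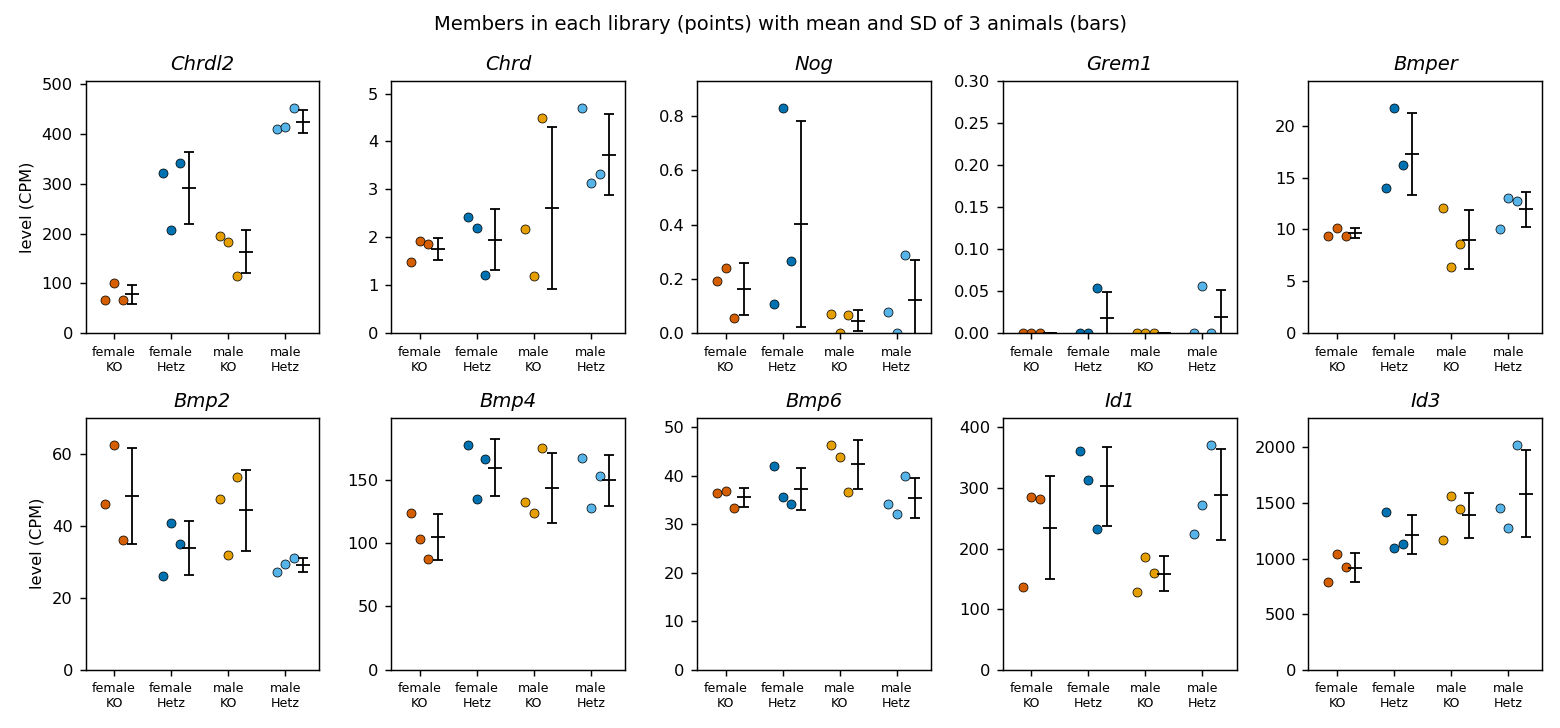
Level of each of the 10 members in CPM in female KO, female Hetz, male KO and male Hetz libraries, 3 animals each. Points are libraries, and the bars beside them are the mean and SD. In both sexes the 3 Chrdl2 points of KO animals sit below the 3 points of Hetz animals, and Nog and Grem1 stay below 1 CPM in every library.

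Across the 4 groups Chrdl2 had its lowest mean in female KO cells at 78.0 ± 18.9 CPM, followed by male KO cells at 163.9 ± 42.8 CPM, female Hetz cells at 291 ± 72.5 CPM and male Hetz cells at 425 ± 23.7 CPM. No library of a group overlapped the values of the next group in that order. Between female KO and male KO cells 18.0% of all genes lay apart in that way in the lower direction. For the other neighbouring groups that share is not given here, so their gaps have no background beside them. Female KO cells held 2.13-fold less than male KO cells, a log2 difference of -1.09 (SE 0.22, 95% interval -1.55 to -0.63) with an edgeR adjusted p of 0.00252. Female Hetz cells differed from male Hetz cells by -0.56 on the log2 scale (interval -1.02 to -0.11), which did not pass at an adjusted p of 0.109 and passed in 1 of 16 alternative settings, without the filter on low counts (0.00638). The KO change in females minus that in males was -0.53 (interval -1.17 to 0.12, adjusted p = 0.51), so a difference in the size of the fall between the sexes was not shown. These comparisons use the libraries whose counts chose Chrdl2, so its p-values here are not independent of that choice. Of the 8 members that passed the filter on low counts, Chrdl2 and Id3 were lower in female KO than in male KO cells, and in that comparison 20.4% of all genes passed the threshold and 11.1% were lower. None of the 8 passed between female Hetz and male Hetz cells by edgeR, DESeq2 or limma voom, where 10.2% of all genes passed in edgeR. At an unadjusted p under 0.05, 1 of the 8 was higher and 3 were lower there.

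Compared per kilobase of exon, Chrdl2 was one of 4 abundant genes in a list of 20 BMP antagonists and binding proteins, with Fstl1, Nbl1 and Twsg1. Its share of the summed level of the list was 7.82 ± 1.22% in female KO against 19.5 ± 4.20% in female Hetz cells, and 13.8 ± 2.63% in male KO against 28.8 ± 1.10% in male Hetz cells. It ranked 4 of 20 in female KO and 3 in female Hetz cells, and 4 in male KO and 1 in male Hetz cells. The summed level of the list was 270 ± 22.4 CPM per kb in female KO against 405 ± 16.6 CPM per kb in female Hetz cells. In males the sum was 320 ± 28.5 CPM per kb in KO against 404 ± 36.8 CPM per kb in Hetz cells. The sums of KO and Hetz libraries did not overlap in either sex, and Chrdl2, which chose the set, is part of them. Chrdl2 alone averaged 44.8 ± 11.7 CPM per kb in male KO against 116 ± 6.49 CPM per kb in male Hetz cells. In females it averaged 21.3 ± 5.17 CPM per kb in KO against 79.5 ± 19.8 CPM per kb in Hetz cells. In females the sums differed by more than the Chrdl2 means did, so the rest of the list was lower in sum there. Fstl1 averaged 92.4 ± 10.2 CPM per kb in female KO against 124 ± 10.5 CPM per kb in female Hetz cells. For Nbl1 these values were 81.2 ± 10.8 against 115 ± 5.45 CPM per kb. Those of Twsg1 were 64.5 ± 0.581 against 70.85 ± 10.2 CPM per kb. Most of the difference between the male sums was that of Chrdl2. The sum without Chrdl2 was not tested.

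**Figure D2:**
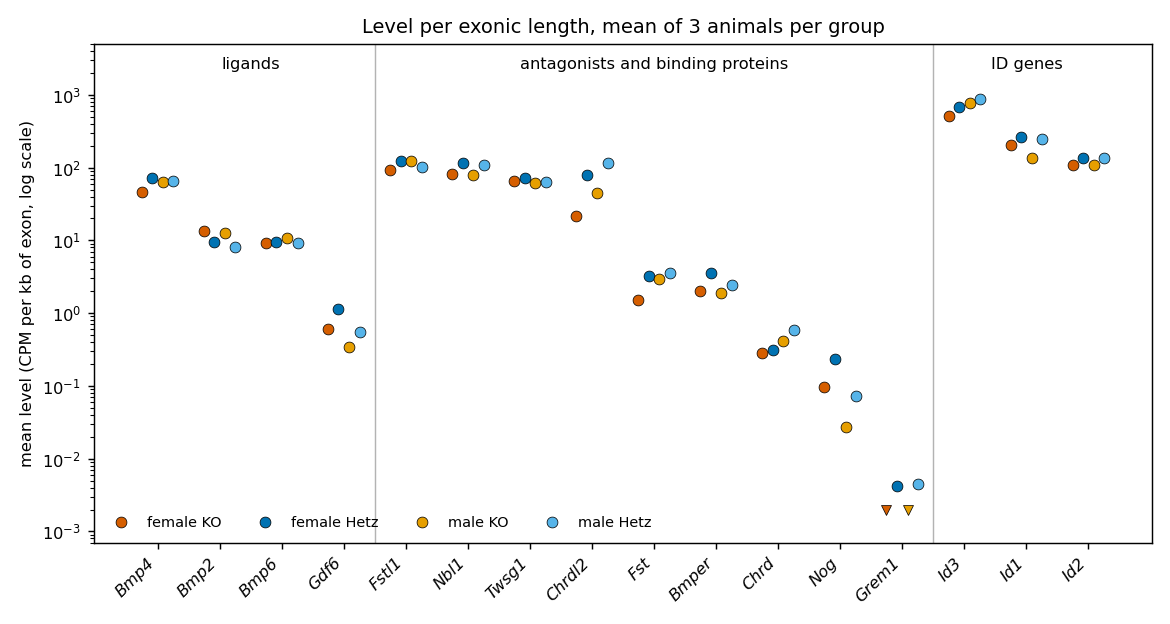
Mean level per kilobase of exon (CPM per kb, log axis) of BMP ligands, of antagonists and binding proteins, and of Id genes in female KO, female Hetz, male KO and male Hetz cells. Points are means of 3 animals, and the triangles for Grem1 at the bottom mark groups with 0 counts. Chrdl2 stands with Fstl1, Nbl1 and Twsg1 in the upper part of the antagonists, while Chrd, Nog and Grem1 lie below 1 CPM per kb.

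Of the 10 members, 8 passed the filter in each comparison, Nog and Grem1 did not, and 7 were tested between genotypes beside the untested Chrdl2. In females 1 of the 7 fell, Bmper, and 0 rose, where 2.27% of the 14036 genes tested passed, 0.983% lower and 1.29% higher. In males 1 of the 7 fell, Id1, and 0 rose, where 0.861% of 13361 genes passed, 0.157% lower and 0.704% higher. For the higher direction, DESeq2 and limma voom also called 0 members in both sexes, and 1 member had an unadjusted p under 0.05 in each. DESeq2 called 2 members lower in females and 1 in males, and limma voom called 0 in both. With Chrdl2 included, KO and Hetz libraries lay apart for 4 lower members in females (Chrdl2, Bmper, Bmp4 and Id3) and for 2 lower members (Chrdl2 and Id1) and 1 higher member (Bmp2) in males. Over all genes tested, the groups lay apart for 10.4% in the lower and 11.9% in the higher direction in females, and for 7.76% and 9.24% in males.

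Bmper, the BMP-binding endothelial regulator, is a secreted protein with cysteine-rich repeats like those of chordin. It stood at 9.37, 10.2 and 9.39 CPM in female KO against 14.02, 21.7 and 16.2 CPM in female Hetz libraries, with every KO library below every Hetz library. The log2 fold change was -0.85 (SE 0.20, interval -1.28 to -0.41, adjusted p = 0.0493), or 1.80-fold lower. Male libraries had 12.04, 6.40 and 8.64 CPM in KO against 10.01, 13.1 and 12.7 CPM in Hetz libraries, which overlapped (log2 fold change -0.40, interval -0.91 to 0.11, adjusted p = 0.56). Averaged over the sexes Bmper fell by 0.62 on the log2 scale (SE 0.16, adjusted p = 0.0362, past the threshold in 6 of 16 alternative settings), and the difference of the sexes did not pass (adjusted p = 0.608). In females the call was lost by limma voom (adjusted p = 0.0679) and when any 1 of the 6 libraries was left out, with adjusted p between 0.0501 and 0.177.

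Chrd encodes chordin, the founding member of the family. It was scarce, at 1.49, 1.92 and 1.85 CPM in female KO against 2.42, 2.20 and 1.22 CPM in female Hetz libraries, and at 2.17, 1.19 and 4.49 CPM in male KO against 4.70, 3.14 and 3.33 CPM in male Hetz libraries. The groups overlapped in both sexes, and the fold changes were within the error (log2 -0.15, interval -0.91 to 0.61 in females and -0.49, interval -1.38 to 0.39 in males). Of its exonic bases 3.82% overlap Thpo.

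Nog, which encodes noggin, had 41 counts over all 12 libraries. There were 4, 4 and 1 counts in female KO, 2, 17 and 5 in female Hetz, 1, 0 and 1 in male KO and 1, 0 and 5 counts in male Hetz libraries. Grem1, which encodes gremlin 1, had 1 count in a female Hetz and 1 in a male Hetz library and none in the KO libraries. A floor of 3 counts equals 0.144 to 0.231 CPM in these libraries. Grem1 stayed below that floor in every library, and Nog exceeded it in some. Both genes were removed by the filter on low counts, so neither was tested for a difference.

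Bmp2 and Bmp4 encode closely related ligands that signal through the same receptors. Bmp2 stood at 46.3, 62.7 and 36.3 CPM in female KO against 26.0, 40.9 and 35.0 CPM in female Hetz libraries, where the groups overlapped. Male libraries had 47.6, 31.9 and 53.8 CPM in KO against 27.3, 29.4 and 31.1 CPM in Hetz libraries, with all KO libraries above all Hetz libraries. Neither sex passed alone (log2 fold change 0.51, adjusted p = 0.241 in females and 0.61, adjusted p = 0.181 in males). Averaged over the sexes Bmp2 rose by 0.56 on the log2 scale (SE 0.15, interval 0.24 to 0.87, adjusted p = 0.0487). In that average 2 of 7 tested members passed, Bmp2 higher and Bmper lower, beside 3.41% of 14772 genes, with 2.15% higher and 1.27% lower. The Bmp2 call held in 5 of 16 alternative settings, and the adjusted p ran from 0.000283 to 0.137 over them.

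Bmp4 stood at 123.5, 103.2 and 87.5 CPM in female KO against 177.5, 134.5 and 166.1 CPM in female Hetz libraries. All female KO libraries were lower, yet the log2 fold change of -0.60 (interval -0.95 to -0.26) did not pass at an adjusted p of 0.0761. DESeq2 called it (adjusted p = 0.0167), as did edgeR without the filter (0.00745) and without Hetz165 (0.0152), and over the 12 alternatives the adjusted p reached 0.329. In males Bmp4 stood at 132, 123 and 175 CPM in KO against 167, 128 and 153 CPM in Hetz libraries, which overlapped (log2 fold change -0.06, interval -0.40 to 0.28). The difference between the sexes was -0.54 and did not pass (adjusted p = 0.367). Of its exonic bases 3.96% overlap Gm15217.

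Bmp6 encodes a ligand best known for its part in iron sensing in the liver. It stood at 36.5, 36.8 and 33.3 CPM in female KO against 42.1, 35.6 and 34.1 CPM in female Hetz libraries. The males had 46.4, 43.9 and 36.8 CPM in KO against 34.1, 32.1 and 40.0 CPM in Hetz libraries. The groups overlapped in both sexes, with log2 fold changes of -0.07 (interval -0.38 to 0.24) and 0.26 (interval -0.06 to 0.59). Per kilobase, Bmp4 was the most abundant of 14 ligand genes in each of the 4 groups, and it made up 66.2 ± 4.19% of their summed level in female KO against 77.2 ± 3.87% in female Hetz cells and 72.4 ± 2.91% in male KO against 78.3 ± 2.22% in male Hetz cells. Bmp2 made up 19.3 ± 3.94% in female KO against 10.6 ± 3.29% in female Hetz cells and 14.1 ± 1.997% in male KO against 9.80 ± 1.40% in male Hetz cells. The shares of Bmp2 in KO and Hetz libraries did not overlap in either sex (16.7 to 23.8% against 7.39 to 14.02% in females and 11.9 to 15.8% against 8.34 to 11.1% in males). A share also depends on the other ligands, and the Bmp2 levels themselves overlapped in females. There Bmp4 averaged 105 ± 18.0 CPM in KO against 159 ± 22.3 CPM in Hetz cells.

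**Figure D3:**
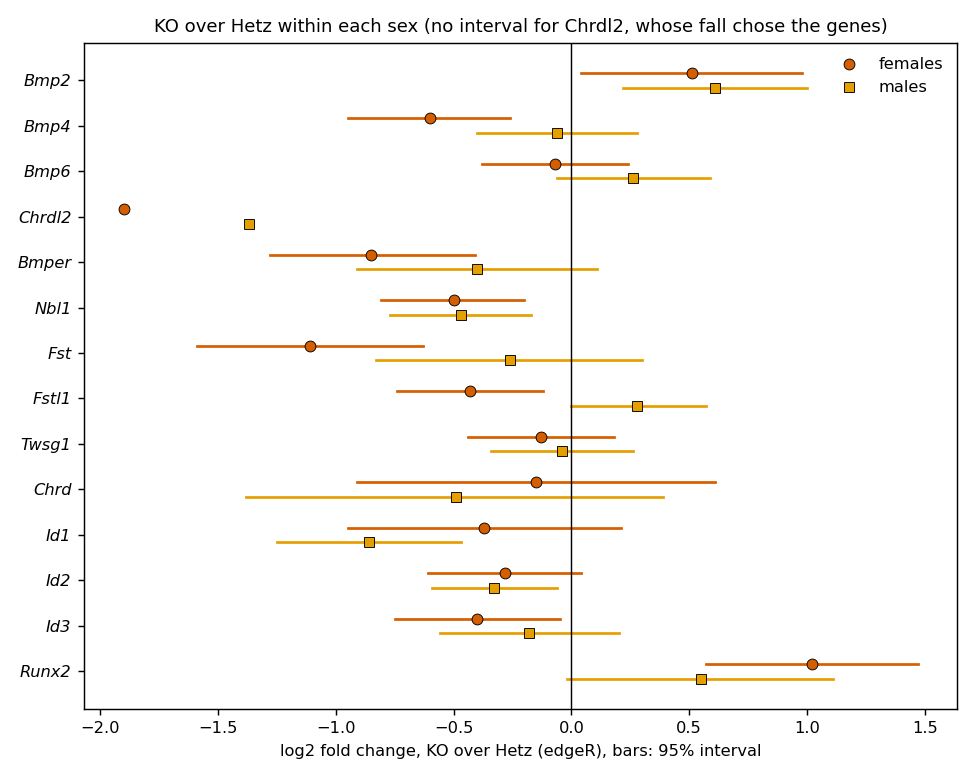
Log2 fold change of KO over Hetz in females (circles) and males (squares) for ligands, antagonists and binding proteins, Id genes and Runx2. Bars are 95% intervals from edgeR, and Chrdl2 has none because its fall chose the genes. Chrdl2 lies at -1.90 in females and -1.37 in males, and Bmp2 and Runx2 lie to the right of 0 in both sexes.

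Id1 and Id3 are the Id genes most often read as immediate outputs of BMP receptors. Id1 stood at 136, 285 and 281 CPM in female KO against 362, 314 and 233 CPM in female Hetz libraries, which overlapped (log2 fold change -0.37, interval -0.95 to 0.21, adjusted p = 0.491). The male libraries had 129, 186 and 160 CPM in KO against 224, 271 and 371 CPM in Hetz libraries, with every KO library lower. The male log2 fold change was -0.86 (SE 0.18, interval -1.25 to -0.47, adjusted p = 0.0475), or 1.82-fold lower. This call was lost by limma voom (adjusted p = 0.056), in the fit of all 12 libraries (0.198) and without any 1 of KO240, KO255, Hetz204, Hetz245 and Hetz249 (0.0573 to 0.319). The female minus male difference was 0.50 (interval -0.29 to 1.28, adjusted p = 0.628), so the sexes were not shown to differ. The Id1 average over the sexes, -0.62 on the log2 scale, did not pass in edgeR (adjusted p = 0.0895). It passed in 2 of 16 alternative settings, DESeq2 and edgeR without the filter.

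Id3 was the most abundant member per kilobase, with a mean of 513 CPM per kb in female KO, 678 in female Hetz, 776 in male KO and 884 CPM per kb in male Hetz cells. It stood at 786, 1043 and 925 CPM in female KO against 1419, 1097 and 1128 CPM in female Hetz libraries, apart but not past the threshold (log2 fold change -0.40, interval -0.75 to -0.05, adjusted p = 0.22). Its male values were 1167, 1561 and 1442 CPM in KO against 1452, 1273 and 2023 CPM in Hetz libraries, which overlapped (log2 fold change -0.18, adjusted p = 0.74). Female KO cells held less Id3 than male KO cells (log2 difference -0.61, SE 0.18, adjusted p = 0.0214). Without KO166, KO188 or KO247 that adjusted p was 0.0972, 0.0598 or 0.079.

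The rest of the pathway was examined as 7 lists with 80 genes in all. Apart from Chrdl2, which chose the set, 11 of 19 antagonists and binding proteins were tested within each sex. In females edgeR called 2 lower (Bmper and Fst) and 0 higher, and in males 0 in either direction. Over all genes tested, 0.983% were lower in females and 0.157% in males. DESeq2 called 3 lower in females and 0 in males, limma voom called 1 lower in females and 0 in males, and neither called any higher. At an unadjusted p under 0.05 there were 1 higher and 4 lower in females and 1 lower in males. The share of all genes under that unadjusted p is not given here, so such counts, for any list, have no background beside them. Over all genes and both directions, DESeq2 called 723 in females and 280 in males, and limma voom called 292 and 101. The median log2 fold change without Chrdl2 was -0.18 in females and -0.04 in males, beside 0.00 and 0.01 over all genes. Averaged over the sexes 3 of 12 were lower: Bmper, Fst and Nbl1, where 1.27% of all genes were lower. Fst had an adjusted p of 0.0448 in that average and passed in 6 of 16 alternative settings.

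Nbl1 encodes a secreted antagonist of the DAN family, to which gremlin belongs. It stood at 141, 183 and 172 CPM in female KO against 241, 240 and 221 CPM in female Hetz libraries. Male values were 170.5, 165.5 and 142.1 CPM in KO against 186, 223 and 256 CPM in Hetz libraries. KO libraries were lower than Hetz libraries in both sexes without overlap. The average over the sexes was -0.49 on the log2 scale (SE 0.10, interval -0.69 to -0.28, adjusted p = 0.00901), or 1.40-fold lower, and it passed in all 16 alternative settings. Neither sex passed alone (adjusted p = 0.0904 in females and 0.181 in males).

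Fst encodes follistatin, which binds activins and myostatin and, more weakly, BMPs. It stood at 6.15, 8.81 and 5.62 CPM in female KO against 16.7, 15.1 and 12.51 CPM in female Hetz libraries, where it fell by 1.11 on the log2 scale (SE 0.22, adjusted p = 0.0201). The male values were 14.1, 12.7 and 13.4 CPM in KO against 24.0, 11.2 and 13.1 CPM in Hetz libraries, which overlapped (adjusted p = 0.753). The difference between the sexes did not pass (-0.84, interval -1.60 to -0.08, adjusted p = 0.364). The female call was lost without Hetz164, KO166 or KO188, at adjusted p of 0.1, 0.109 and 0.112.

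Other genes of the list were named for their level per kilobase, except Fstl3, which is uncertain because 47.3% of its exonic bases overlap Prss57. Fstl1, a secreted follistatin-like glycoprotein, averaged 454 ± 50.2 CPM in female KO against 611 ± 51.6 CPM in female Hetz and 600 ± 54.8 CPM in male KO against 495 ± 53.0 CPM in male Hetz cells. It did not pass in either sex (adjusted p = 0.153 and 0.414), and the difference of the changes was -0.71 with an adjusted p of 0.169. Twsg1, which helps chordin hold BMPs, averaged 333 ± 2.99 CPM in female KO against 365 ± 52.4 CPM in female Hetz and 320 ± 46.9 CPM in male KO against 331 ± 30.9 CPM in male Hetz cells. Its log2 fold changes were within -0.44 to 0.18 in females and -0.34 to 0.26 in males by their intervals. Crim1, a membrane protein that tethers BMPs, averaged 9.15 ± 1.24 CPM in female KO against 9.78 ± 1.07 CPM in female Hetz and 10.95 ± 2.10 CPM in male KO against 11.2 ± 2.09 CPM in male Hetz cells.

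Among the ligands, 5 of 14 genes were tested in females and 4 in males, and edgeR called 0 in either sex. DESeq2 called 1 lower in females and 0 in males, limma voom called 0, and at an unadjusted p under 0.05 there were 1 higher and 2 lower in females and 1 higher in males. Gdf6, the fourth ligand by level, averaged 2.16 ± 0.33 CPM in female KO against 3.996 ± 1.16 CPM in female Hetz (adjusted p = 0.164) and 1.22 ± 0.735 CPM in male KO against 1.92 ± 0.565 CPM in male Hetz cells. Bmp7 reached at most 0.752 ± 0.34 CPM, the mean of female Hetz cells.

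Tolloid proteases such as BMP1 cut chordin and so free its ligands, and procollagen C-endopeptidase enhancers are known to raise the activity of BMP1 on procollagen. Of 5 such genes 4 were tested and edgeR called 0 in either sex. At an unadjusted p under 0.05, 1 was lower in females and 2 in males, and DESeq2 and limma voom called 0 within the sexes. Bmp1 averaged 48.0 ± 11.2 CPM in female KO against 56.5 ± 16.8 CPM in female Hetz and 36.5 ± 6.36 CPM in male KO against 50.1 ± 6.79 CPM in male Hetz cells (adjusted p = 0.61 and 0.265). Pcolce2 averaged 9.74 ± 0.654 CPM in female KO against 16.4 ± 5.84 CPM in female Hetz and 7.49 ± 0.60 CPM in male KO against 11.9 ± 4.66 CPM in male Hetz cells, with an adjusted p of 0.061 for the average over the sexes. Pcolce and Tll1 had log2 fold changes of -0.14 and -0.17 in females and -0.21 and 0.41 in males, none past the threshold.

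Of 14 receptors and co-receptors 13 were tested, and of 10 SMADs and their regulators 9, and edgeR called 0 in each list in either sex. DESeq2 called 1 lower in each of these lists in females and 0 in males, and limma voom called 0. At an unadjusted p under 0.05 the receptors had 1 higher and 2 lower in females and 1 higher and 1 lower in males, and the SMAD list had 1 lower in females and 1 higher in males. The medians of the receptor list were 0.03 in both sexes. Among the co-receptors, Tgfbr3 averaged 244 ± 26.6 CPM in female KO against 231 ± 10.3 CPM in female Hetz and 279 ± 70.2 CPM in male KO against 252 ± 15.6 CPM in male Hetz cells. Rgmb, which encodes a BMP co-receptor of the repulsive guidance family, had log2 fold changes of -0.12 in females and -0.30 in males. Eng and Acvr2a did not pass either (adjusted p = 0.268 and 0.648 in females, 0.688 and 0.838 in males).

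Smad5, a signal transducer of BMP receptors, averaged 98.2 ± 2.43 CPM in female KO against 114 ± 7.61 CPM in female Hetz and 107 ± 5.13 CPM in male KO against 110 ± 5.45 CPM in male Hetz cells. Smad4 and Ski had log2 fold changes of 0.17 and 0.07 in females and of 0.13 and 0.07 in males. Skil, which encodes a repressor of SMAD transcription, averaged 304 ± 44.8 CPM in female KO against 512 ± 144 CPM in female Hetz and 609 ± 59.2 CPM in male KO against 441 ± 56.2 CPM in male Hetz cells. KO libraries lay below all Hetz libraries in females and above them in males, but the difference of -1.22 (SE 0.25, interval -1.75 to -0.69) had an adjusted p of 0.0854.

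Among 11 of 14 BMP target genes tested, 1 rose in females (Runx2) and 1 fell in males (Id1), where 1.29% of all genes rose in females and 0.157% fell in males. DESeq2 made the same numbers of calls, and limma voom called 1 higher in females and 0 in males. At an unadjusted p under 0.05 there were 1 higher and 3 lower in females and 3 lower in males, and the median log2 fold changes were -0.28 and -0.18. Runx2, a transcription factor known for bone formation, stood at 12.7, 15.4 and 17.1 CPM in female KO against 7.95, 5.96 and 8.38 CPM in female Hetz libraries (log2 fold change 1.02, SE 0.21, adjusted p = 0.0218). Its values in males were 5.81, 5.73 and 6.83 CPM in KO against 5.005, 2.97 and 4.64 CPM in Hetz libraries (log2 fold change 0.55, adjusted p = 0.423). KO libraries were higher in both sexes without overlap, and the average of 0.79 (SE 0.16, adjusted p = 0.00958) passed in all 16 alternative settings. Of its exonic bases 5.87% overlap Runx2os1, and the female call was lost without Hetz164, KO178 or KO188 (adjusted p = 0.0685, 0.0792 and 0.14). Id2, a further Id gene, averaged 267 ± 42.8 CPM in female KO against 326 ± 31.6 CPM in female Hetz and 264 ± 18.4 CPM in male KO against 332 ± 27.1 CPM in male Hetz cells (adjusted p = 0.348 and 0.29). Hey1 and Bambi, which encodes a decoy receptor, had log2 fold changes of -0.13 and -0.14 in females and -0.05 and 0.02 in males.

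The partners of ID proteins are the E proteins and the myogenic factors that pair with them. All 7 were tested, and edgeR called 0 in either sex. DESeq2 called 0 in females and 1 higher in males, limma voom called 0, and at an unadjusted p under 0.05 there were 1 higher and 1 lower in females and 2 higher in males. Myod1 averaged 1178 ± 259 CPM in female KO against 1542 ± 489 CPM in female Hetz and 2084 ± 77.5 CPM in male KO against 2479 ± 631 CPM in male Hetz cells. Myf5 averaged 1037 ± 97.0 CPM in female KO against 1395 ± 499 CPM in female Hetz and 1658 ± 229 CPM in male KO against 1342 ± 47.0 CPM in male Hetz cells. Myog, which marks differentiation, averaged 41.9 ± 1.86 CPM in female KO against 41.2 ± 10.5 CPM in female Hetz and 17.8 ± 7.79 CPM in male KO against 7.77 ± 3.14 CPM in male Hetz cells (adjusted p = 0.959 and 0.206). Tcf3, an E protein, had an adjusted p of 0.247 in females and 0.96 in males.

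Over all 59 genes of these lists that were tested for it, edgeR called 0 as changed differently in females and males, where 0.00677% of all genes passed. DESeq2 called 0 higher and 3 lower and limma voom 0, and 2 higher and 9 lower had an unadjusted p under 0.05.

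The genes most like Chrdl2 were sought by Pearson's correlation of log2 CPM over the 12 libraries, which share 4 group means, and no test was made. They were Cers6 (r = 0.941), a ceramide synthase, Hdac1 (0.937), a histone deacetylase, Nppc (0.932), which encodes C-type natriuretic peptide, Lmo2 (0.931) and Ugp2 (0.930). Nppc averaged 3.93 ± 1.99 CPM in female KO against 14.5 ± 2.26 CPM in female Hetz and 6.28 ± 2.45 CPM in male KO against 30.9 ± 3.45 CPM in male Hetz cells. On deviations from the group means, the highest were Hmgb1 (0.965), Cers6 (0.944), Atp2c1 (0.933), Ube2k (0.933) and Mrps11 (0.927), so Cers6 was in both sets of 5. Of the members, Id3 (0.702), Bmp4 (0.643) and Bmp2 (-0.698) had the values farthest from 0 for levels, against 0.267, -0.095 and -0.143 for deviations. Id1 and Id3 had r = 0.329 for levels and 0.764 for deviations.

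**Figure D4:**
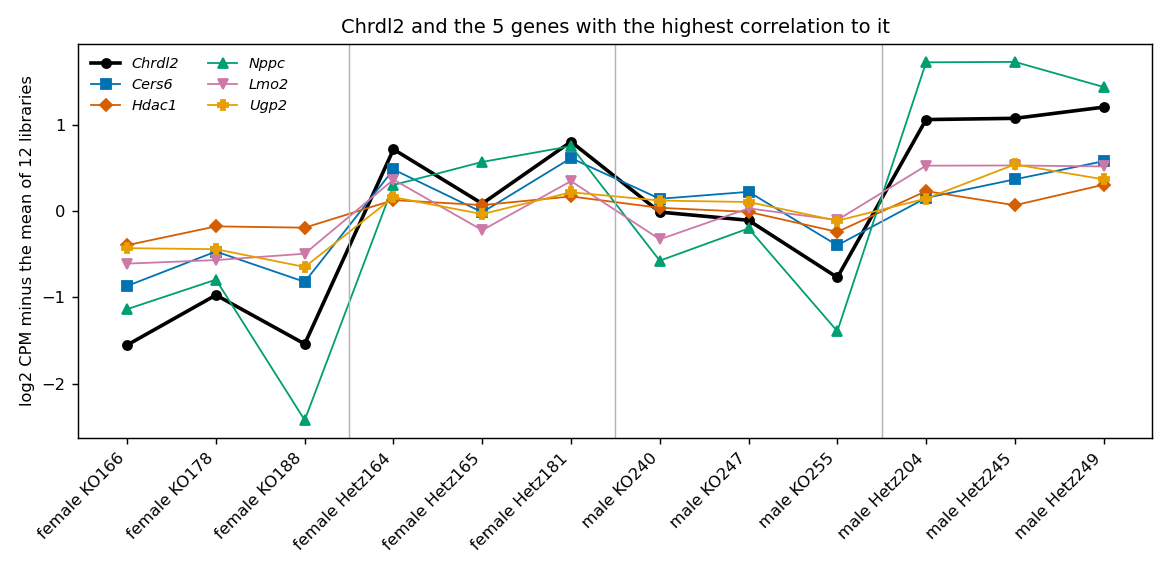
Log2 CPM minus the mean of the 12 libraries for Chrdl2 and the 5 genes with the highest correlation of levels to it (Cers6, Hdac1, Nppc, Lmo2, Ugp2). Lines join the 12 libraries, ordered as female KO, female Hetz, male KO and male Hetz and parted by vertical lines. Each line is lowest among the female KO libraries and Nppc spans the widest range.

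The genes most like Id1 by levels were Tmem115 (0.886), Tigd5 (0.869), Gtf2f1 (0.865), Itgav (0.859) and Gm38285 (0.841). By deviations they were Rpl19 (0.973), Pars2 (0.958), Jam3 (0.958), Chchd2 (0.944) and Rpl15 (0.944), with no gene in both sets. None of these passed between KO and Hetz in either sex.

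Markers of other cells were measured beside these results. Over all genes tested, edgeR called 0.983% lower in females, 0.157% in males and 1.27% averaged over the sexes. In females the summed level of 13 genes of dissociation stress (immediate early and heat shock genes) ran from 10400 to 10800 CPM in KO against 14100 to 16800 CPM in Hetz libraries, and 6 of 13 were lower. In males it ran from 14000 to 19600 CPM in KO against 16300 to 18400 CPM in Hetz libraries, and edgeR, DESeq2 and limma voom called 0, with 1 lower at an unadjusted p under 0.05. The sum of 12 leukocyte and macrophage markers ran from 39.6 to 60.6 CPM in female KO against 92.5 to 132 CPM in female Hetz libraries, with 2 of 11 tested lower, and from 60.8 to 74.2 CPM in male KO against 30.6 to 98.4 CPM in male Hetz libraries. The sum of 11 satellite cell markers ran from 9490 to 12200 CPM in female KO against 13700 to 14700 CPM in female Hetz and 19100 to 20700 CPM in male KO against 17300 to 21000 CPM in male Hetz libraries. Of the satellite cell markers, edgeR and limma voom called 0 in either sex, DESeq2 called 2 lower in females, and 3 were lower in females at an unadjusted p under 0.05. At an unadjusted p under 0.05 in males, 2 were higher and 1 lower. The marker with the highest level was Sdc4, at 4120 to 5900 CPM in female KO against 6600 to 8150 CPM in female Hetz libraries. Calcr lay apart as well, at 69.5 to 104 CPM in female KO against 117 to 144 CPM in female Hetz libraries. The other satellite cell markers overlapped in females. Among them Vcam1 ran from 1250 to 1720 CPM in female KO against 1660 to 2230 CPM in female Hetz libraries. Des ran from 908 to 1330 CPM in female KO against 539 to 1080 CPM in female Hetz libraries, and Pax7, Itga7 and Cdh15 overlapped too. The 3 sums lay apart between KO and Hetz libraries in females, where Bmper, Fst and Runx2 passed, and their part in those results was not tested. In males, where Id1 passed, the sum of 6 Schwann and glial markers ran from 184 to 312 CPM in KO against 169 to 180 CPM in Hetz libraries. Of these 6, edgeR called 0 in males, 1 was higher at an unadjusted p under 0.05, and their part was not tested. The sums of pericyte, myofibre and tenocyte markers overlapped in each sex. Averaged over the sexes, where Nbl1, Runx2, Bmper, Bmp2 and Fst passed, edgeR called 3 stress genes lower (Jun, Ier2 and Btg2), DESeq2 5 and limma voom 4. Of 12 endothelial markers Tek was lower in that average (log2 fold change -0.57, edgeR adjusted p = 0.0392), also by DESeq2 and limma voom. Mitochondrial ribosomal RNA took 0.733 to 1.03% of the counts in female KO against 0.302 to 0.507% in female Hetz libraries, and 0.226 to 0.407% in male KO against 0.409 to 0.601% in male Hetz libraries. Without mitochondrial genes the female call of Bmper kept an adjusted p of 0.0496, and its part was otherwise not tested. The sum of 12 endothelial markers ran from 54.7 to 91.9 CPM in female KO against 68.7 to 72.5 CPM in female Hetz and 130 to 334 CPM in male KO against 209 to 223 CPM in male Hetz libraries. Fibro-adipogenic progenitors, which also make BMP antagonists, had summed markers of 4420 to 5220 CPM in female KO against 4680 to 7170 CPM in female Hetz and 3790 to 4490 CPM in male KO against 2860 to 4560 CPM in male Hetz libraries. The sums of both of these lists overlapped between KO and Hetz libraries in each sex, and none of the markers of any list was at 0 in all libraries. Of 12 progenitor markers, edgeR and limma voom called 0 in either sex, and DESeq2 called 2 lower in females. At an unadjusted p under 0.05, 4 were lower in females and 1 was higher in males. Gsn ran from 1600 to 1940 CPM in female KO against 2190 to 2620 CPM in female Hetz libraries. In males it ran from 2600 to 2870 CPM in KO against 1870 to 2340 CPM in Hetz libraries. All other progenitor markers, Pdgfra, Dcn and Col3a1 among them, overlapped between KO and Hetz libraries in both sexes.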

How the data were processed

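Per the labels' protocols, total RNA of isolated cells was turned into cDNA by Smart-Seq2, then fragmented with Tn5. The authors deposited whole-number counts of fragments per Ensembl gene. Per the file headers, featureCounts 2.0.0 made them from exons of release 99 (GRCm38), ignoring strand. The deposited values are not estimated counts, so none needed rounding. Per the submitters' processing notes, STAR, Subread, DESeq2 and mm10 were also used (versions not given in the sources used here). Of 55385 genes, 55144 were given a symbol from GENCODE M21.

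CPM were computed with TMM factors over 12 libraries, and CPM per kb with the deposited exonic length. KO and Hetz were compared within each sex (6 libraries, 1 table) with the quasi-likelihood test of edgeR 4.0.16 in R 4.3.3 (robust, TMM, minimum count of 10 in filterByExpr), adjusted by Benjamini-Hochberg over all genes tested, with a threshold of 0.05. The average, the difference and the sex comparisons came from 1 fit of 12 libraries. Alternatives were DESeq2 1.42.0, its size factors, limma voom 3.58.1, no filter, no mitochondrial genes, 1 fit of all 12 libraries and leaving out each library. Intervals are 95%, and floors cover counting error only.

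Members, lists and motifs were chosen with earlier results of these data known. Named are all members, each list gene past the threshold, up to 4 more per list by level per kb, and the 5 genes most like Chrdl2 and Id1. Each animal has its own number, and p-values measure the spread between these animals.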

Additional observations from a re-analysis of the deposited data

How the results depend on the processing

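No paired analysis was possible because each animal number occurs once, so no number joins a KO to a Hetz animal. The genes past the threshold were 319 in females, 115 in males, 504 on average, 1 for the difference of the sexes, 1501 between female and male Hetz and 3016 between female and male KO. DESeq2 gave 723, 280, 843, 238, 2019 and 3424, and edgeR without the filter 1000, 375, 858, 358, 1906 and 3108. Leaving out 1 library gave 144 to 1479 in females, 41 to 294 in males, 318 to 931 on average, 0 to 206 for the difference, 668 to 1729 between Hetz and 2001 to 3312 between KO.

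Over the single genes, 779 values were counted as the same. These kept direction and side of the threshold or, for the untested Chrdl2 changes, kept direction and moved by less than the SD within groups. Values without an adjusted p were counted there too. Of the rest, 54 lost a call, 18 gained one and 21 turned sign, the last when 1 library was left out, all in results that had not passed. Their log2 values then ran from -0.31 to 0.08 (Bmp2, difference), -0.12 to 0.28 (Bmp2, between KO), -0.02 to 0.19 (Bmp4, between Hetz), -0.22 to 0.04 (Bmp4, males), -0.03 to 0.15 (Bmp6, between Hetz), -0.14 to 0.02 (Bmp6, females), -0.11 to 0.35 (Bmper, between KO), -0.40 to 0.03 (Chrd, females), -0.93 to 0.04 (Chrd, between KO), -0.48 to 0.15 (Fst, males), -0.08 to 0.27 (Id1, between Hetz), -0.32 to 0.01 (Id3, males) and -0.14 to 0.07 (Nbl1, difference). The causes were not tested. The Chrdl2 change of KO over Hetz ran from -2.11 to -1.77 in females, -1.53 to -1.16 in males and -1.74 to -1.53 on average. Depth limits Nog, Grem1 and Chrd.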
